A study of Homo sapiens with 8 samples.

Results

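A set of 10 genes for factors of messenger RNA cleavage and polyadenylation was followed on 8 Affymetrix arrays of the breast cancer cell line HCC1937. They are PCF11, RBBP6, CPSF1, CPSF2, CPSF3, CPSF6, CSTF1, CSTF3, CLP1 and FIP1L1, 10 of the 18417 genes measured. All 10 were found, each with 1 probe set that the platform annotation pairs with that gene alone. The set was put together with earlier results of these arrays known: PCF11 and RBBP6 were chosen by their log2 change with the drug COH29, as being among the largest falls, and the other 8 genes belong to the same machinery. Changes with COH29 of all 10 genes are therefore given as a description, without a test.

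HCC1937 is labelled BRCA1 deficient, and per the design text its BRCA1 is truncated and its DNA repair impaired. HCC1937+BRCA1, labelled WT (wild-type) BRCA1, expresses that gene from an exogenous source and is called phenotypically normal there. Either line was labelled control or COH29, an inhibitor of ribonucleotide reductase, at 10 µM for 24 h, which gave 4 groups of 2 arrays. The text on dose and time is attached to all 8 samples, so the controls are known from the treatment label and the title, and no time is given for them apart. All groups share the HCC1937 background and medium with 10% fetal bovine serum. The BRCA1 construct, the promoter that drives it, whether HCC1937+BRCA1 is 1 clone, and a vehicle for the controls are not given in the sources used here. The labels name no separate cultures behind the 2 arrays of a group, so p-values measure only how these samples spread, which may be technical.

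Most messenger RNAs end by cleavage of the nascent transcript downstream of a poly(A) signal, after which a poly(A) tail is added. The cleavage and polyadenylation specificity factor (CPSF) recognises the signal and cuts the RNA, and the cleavage stimulation factor (CstF) binds downstream of the cut. Cleavage factor I (CFI) binds upstream elements and bears on which of several sites is used, while cleavage factor II (CFII) and RBBP6 activate the cut. The level of these factors is known to shift the choice between poly(A) sites, and CFII also takes part in the release of RNA polymerase II.

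Values are log2 intensities, so a difference of 1 is a 2-fold difference, and levels are compared between arrays for 1 gene at a time, never between genes. Arrays of a group correlated at 0.996 to 0.997 across genes. The median change of all genes with COH29 was 0.04 in each line, and 0.07 in HCC1937 and 0.11 in HCC1937+BRCA1 when arrays were shifted to the same median. BRCA1 itself averaged 10.55 ± 0.13 (SD, n = 2) in HCC1937 control and 10.46 ± 0.05 in HCC1937+BRCA1 control, so without the drug this probe set does not tell the line labels apart. With COH29 it read 10.40 and 10.46 in HCC1937 and 10.25 and 10.07 in HCC1937+BRCA1, lower in the line labelled wild-type. The epithelial marker genes EPCAM, CDH1, KRT7, KRT8, KRT18 and KRT19 ran from 7.61 to 13.33 over the 8 arrays, the basal mammary markers KRT5, KRT14 and EGFR from 8.62 to 11.04, while ESR1, PGR and ERBB2 summed to between 22.26 and 22.92. Bulk arrays cannot tell fewer expressing cells from less RNA per cell.

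PCF11 encodes the large CFII subunit, which binds the tail of RNA polymerase II and joins the cleavage machinery to it. Its signal was 9.75 and 9.80 on the 2 HCC1937 control arrays and 7.54 and 7.87 with COH29. In HCC1937+BRCA1 it was 10.08 and 9.84 on the control arrays and 7.85 and 7.51 with COH29. All 4 treated arrays lay below all 4 control arrays, and the treated arrays of both lines overlapped. The change with COH29 was -2.07 ± 0.15 (SE of the limma fit, n = 2 arrays per group) in HCC1937, 4.2-fold lower, and -2.28 ± 0.15 in HCC1937+BRCA1, 4.85-fold lower. Counted from the largest fall among 18417 genes these were ranks 4 and 7.

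RBBP6 encodes a RING-type ubiquitin ligase that binds RB1 and is needed for efficient cleavage of the transcript. It read 10.56 and 10.52 on the HCC1937 control arrays and 8.34 and 8.23 with COH29. On the HCC1937+BRCA1 arrays it read 10.62 and 10.56 without and 8.65 and 8.72 with the drug. Control arrays of both lines lay between 10.52 and 10.62, and the treated arrays of HCC1937+BRCA1 stayed above those of HCC1937 without overlap. The changes were -2.26 ± 0.08 and -1.90 ± 0.08, 4.78-fold and 3.74-fold lower, at ranks 2 and 20 among the falls.

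CLP1, an RNA kinase that is the other CFII subunit and also works with the tRNA splicing endonuclease, did not share the direction of PCF11. It measured 8.20 and 8.05 on the HCC1937 control arrays and 8.30 and 8.36 with COH29. In HCC1937+BRCA1 the values were 8.09 and 8.13 without and 8.35 and 8.50 with COH29. Treated arrays were above the control arrays in both lines, and arrays of the lines overlapped within either condition. The changes of 0.20 ± 0.09 and 0.31 ± 0.09 were the only ones above 0 in both lines among the 10 genes.

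The promoter windows of these 3 genes are shown because PCF11 and RBBP6 were lower together while CLP1, the partner of PCF11, was not. They run from 250 bases before to 50 bases after the annotated start in RefSeq (GRCh38.p14), all on the + strand, 5′ to 3′, at chr11:83156881-83157180 for PCF11, chr16:24539316-24539615 for RBBP6 and chr11:57657512-57657811 for CLP1. Capitals mark matches, on either strand, to TGACG (called the CRE core here, from the cAMP response element), to CCAAT (the CCAAT box), to GGGCGG (the GC box) and to CCGGAAG (the ETS core, bound by ETS factors).
PCF11: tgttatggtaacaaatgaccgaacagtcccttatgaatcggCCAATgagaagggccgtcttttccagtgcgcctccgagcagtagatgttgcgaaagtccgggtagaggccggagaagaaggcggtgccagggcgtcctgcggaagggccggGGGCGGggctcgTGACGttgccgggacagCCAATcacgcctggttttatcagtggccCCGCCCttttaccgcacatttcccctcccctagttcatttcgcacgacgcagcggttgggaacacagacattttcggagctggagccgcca
RBBP6: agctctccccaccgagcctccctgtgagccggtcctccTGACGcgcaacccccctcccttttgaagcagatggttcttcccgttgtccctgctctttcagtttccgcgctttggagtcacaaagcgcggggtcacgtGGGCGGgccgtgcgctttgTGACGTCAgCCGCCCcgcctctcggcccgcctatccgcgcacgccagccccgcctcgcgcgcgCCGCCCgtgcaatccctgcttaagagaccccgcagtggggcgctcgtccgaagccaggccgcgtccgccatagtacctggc
CLP1: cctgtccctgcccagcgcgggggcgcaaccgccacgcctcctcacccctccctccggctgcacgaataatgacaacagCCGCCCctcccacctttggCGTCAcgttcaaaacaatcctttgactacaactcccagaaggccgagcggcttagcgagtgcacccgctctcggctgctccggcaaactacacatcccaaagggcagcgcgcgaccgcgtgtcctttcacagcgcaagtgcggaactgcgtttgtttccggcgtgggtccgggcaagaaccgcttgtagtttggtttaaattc

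In the PCF11 window 2 CCAAT boxes, 2 GC boxes and 1 CRE core were found, and in the RBBP6 window 3 GC boxes and 3 CRE cores, of which 2 overlap on opposite strands. The CLP1 window held 1 GC box and 1 CRE core, and the ETS core was in none of the 3. A CRE core was present in 24.6% of the 35116 promoter windows of the same length, a CCAAT box in 34.6%, a GC box in 45.0% and an ETS core in 10.3%. Those windows were not limited to genes measured here or matched to the 10 genes, so no enrichment is read from these shares. Windows were found for 9 of the 10 genes, of which 8 held a CRE core, 5 a CCAAT box, 6 a GC box and 3 an ETS core. The short elements were chosen after the windows had been seen, and a match is a match of letters, not a bound site.

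**Figure D1:**
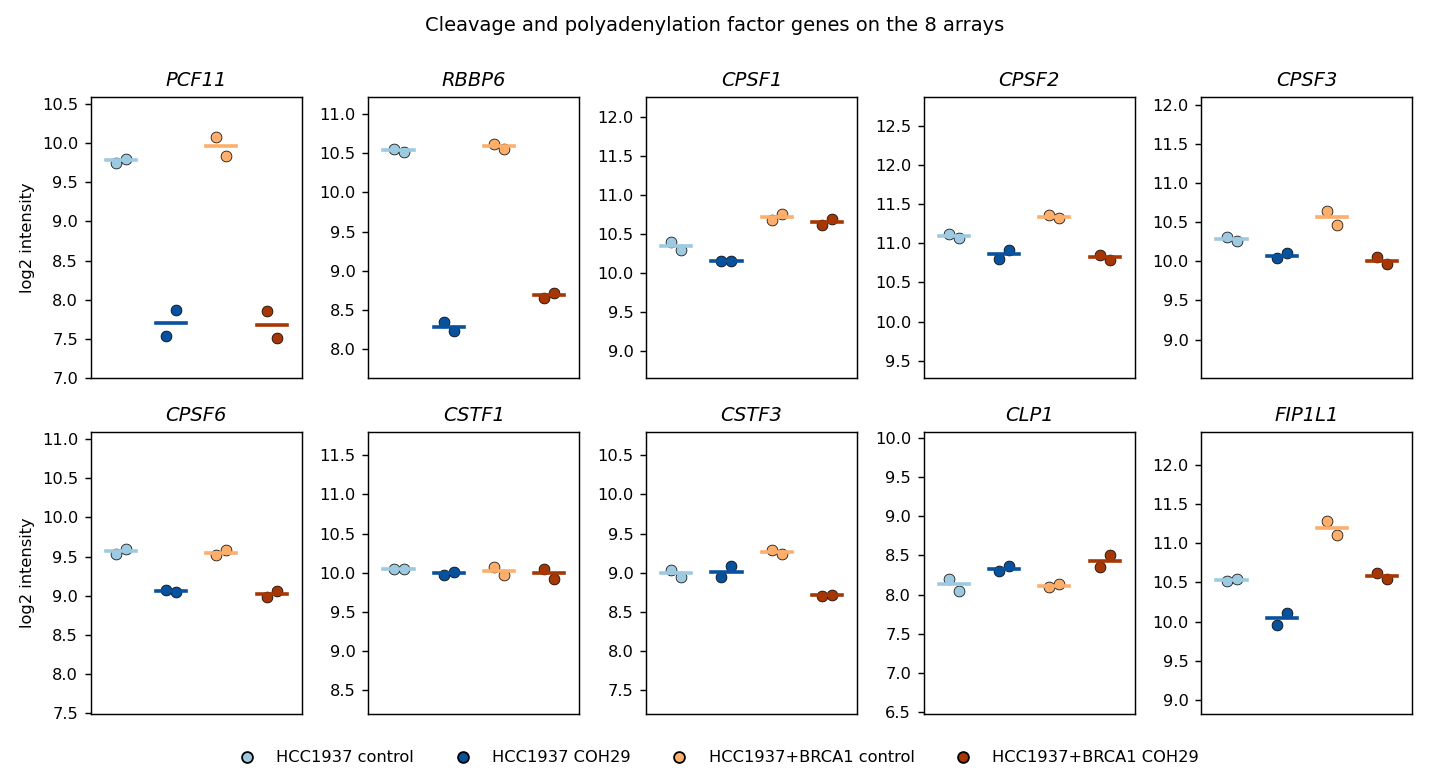
Log2 intensity (y axis) of the 10 genes on each of the 8 arrays, with 1 point per array, a bar at the mean of each group of 2, and axes of equal span. PCF11 and RBBP6 lie about 2 log2 units lower on the treated arrays of both lines, while CSTF1 stays between 9.92 and 10.07 on every array.

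Among the 4 subunits of the CPSF complex in the set (CPSF1, CPSF2, CPSF3 and FIP1L1; CPSF6 belongs to CFI), FIP1L1, whose product tethers poly(A) polymerase, had the largest difference with the drug. FIP1L1 measured 10.52 and 10.54 in HCC1937 control, 9.96 and 10.11 with COH29, 11.28 and 11.10 in HCC1937+BRCA1 control and 10.62 and 10.54 with COH29. The groups did not overlap, although the treated HCC1937+BRCA1 arrays sat next to the HCC1937 control arrays, 0.05 apart in the mean. The changes with COH29 were -0.49 ± 0.10 in HCC1937 and -0.61 ± 0.10 in HCC1937+BRCA1, 1.41-fold and 1.52-fold lower.

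CPSF3, the endonuclease that makes the cut, gave 10.31 and 10.26 in HCC1937 control and 10.04 and 10.10 with COH29, against 10.64 and 10.47 and then 10.06 and 9.97 in HCC1937+BRCA1. CPSF2, its catalytically inactive relative in the same complex, gave 11.12 and 11.07 and then 10.80 and 10.92 in HCC1937, against 11.36 and 11.32 and then 10.85 and 10.79 in HCC1937+BRCA1. The groups of both genes came in the same order. HCC1937+BRCA1 control was highest, HCC1937 control lay clear below it, and the treated groups were lowest and overlapped. The changes of CPSF3 were -0.21 ± 0.09 in HCC1937 and -0.54 ± 0.09 in HCC1937+BRCA1, and those of CPSF2 were -0.23 ± 0.08 and -0.52 ± 0.08.

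CPSF1, the scaffold subunit, was ordered by line first. It read 10.40 and 10.29 in HCC1937 control and 10.16 on both arrays with COH29, and 10.68 and 10.75 in HCC1937+BRCA1 control and 10.61 and 10.69 with COH29. Every HCC1937+BRCA1 array was above every HCC1937 array, and within HCC1937+BRCA1 treated and control arrays overlapped. The changes were -0.19 ± 0.08 and -0.06 ± 0.08. The second was 0.01 with arrays shifted to the same median and 0.05 after cyclic loess, so its direction depends on the scaling.

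CPSF6 encodes the large CFI subunit that partners the RNA-binding NUDT21. It measured 9.53 and 9.60 in HCC1937 control, 9.07 and 9.05 with COH29, 9.52 and 9.58 in HCC1937+BRCA1 control and 8.98 and 9.06 with COH29. The lines overlapped within each condition, and all treated arrays were below all control arrays. The changes of -0.51 ± 0.08 and -0.53 ± 0.08 correspond to 1.42-fold and 1.44-fold lower signal.

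The CstF genes went separate ways. CSTF1, whose product binds BARD1, the partner of BRCA1, read 10.04 and 10.05 in HCC1937 control, 9.97 and 10.01 with COH29, 10.07 and 9.97 in HCC1937+BRCA1 control and 10.05 and 9.92 with COH29. Each group overlapped the next in order of the mean, and the changes of -0.05 ± 0.09 and -0.04 ± 0.09 were within their error, with the second at 0.08 after cyclic loess and from -0.10 to 0.03 when arrays were left out. CSTF3, the scaffold of CstF, read 9.03 and 8.94 and then 8.94 and 9.09 in HCC1937, against 9.29 and 9.24 and then 8.70 and 8.72 in HCC1937+BRCA1. The treated HCC1937+BRCA1 arrays were the lowest and the control arrays of that line the highest, with both HCC1937 groups overlapping between them. The changes of CSTF3 were 0.03 ± 0.09 in HCC1937 (-0.05 to 0.10 when arrays were left out) and -0.55 ± 0.09 in HCC1937+BRCA1.

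**Figure D2:**
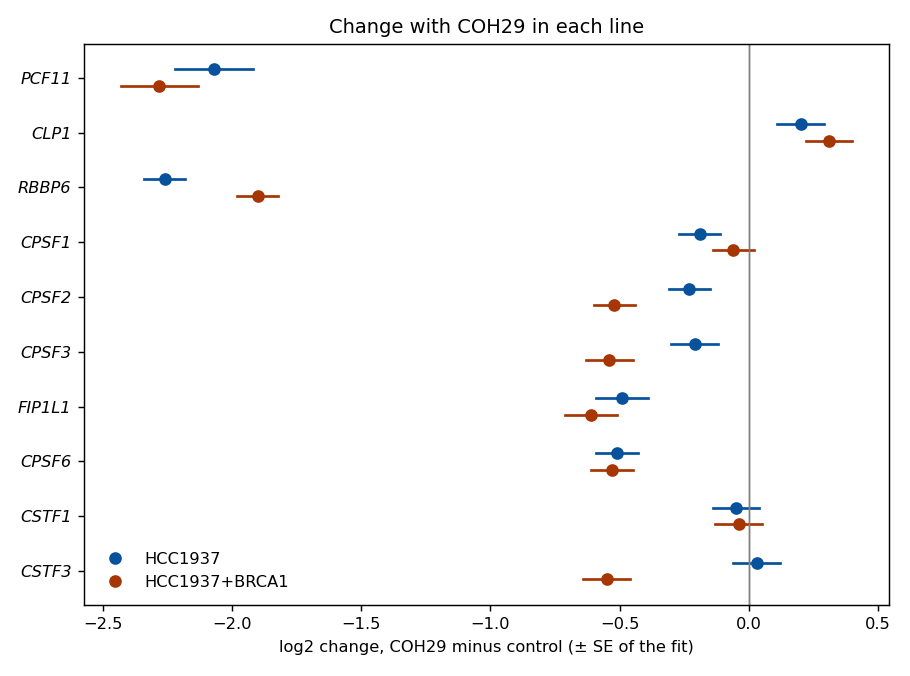
Log2 change with COH29 (x axis, COH29 minus control) of the 10 genes in HCC1937 and HCC1937+BRCA1, with points for the difference of group means and bars for ± SE of the limma fit. PCF11 and RBBP6 lie between -2.28 and -1.90, and the other 8 genes between -0.61 and 0.31.

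In all, 8 of the 10 genes had treated arrays below control arrays without overlap in HCC1937 and 7 in HCC1937+BRCA1, beside 28.6% and 33.0% of all genes. CLP1 alone had them above, in both lines, beside 33.8% and 35.4% of all genes. At a limma adjusted p under 0.05, 22.7% of all genes were called in either direction in HCC1937 and 33.6% in HCC1937+BRCA1, and no such count is given for the 10 genes. A change of -1 or below was seen in 2 of 10 genes in each line, PCF11 and RBBP6, beside 0.977% and 2.12% of all genes. Both counts include the contrast by which genes were chosen, so they describe the set only. The median change of the 10 genes was -0.22 in HCC1937 and -0.54 in HCC1937+BRCA1, and that of the 8 genes without PCF11 and RBBP6 was -0.20 and -0.53.

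Some genes known as markers of other cell types also had signal and were lower on the treated arrays on which PCF11 and RBBP6 were lower. The summed log2 level of the endothelial genes PECAM1 and CDH5, 2 of 2 measured, went from 17.95 to 18.15 in HCC1937 control to 14.69 to 14.96 with COH29, and from 15.41 to 15.64 to 13.39 to 13.69 in HCC1937+BRCA1. The 3 of 4 blood genes measured, PTPRC, CD3E and CD14, of which PTPRC ran from 3.73 to 4.31 on all arrays and CD14 ran from 9.38 to 10.74 in HCC1937 and from 6.62 to 6.87 in HCC1937+BRCA1, summed to 19.82 to 20.13 and then 19.13 to 19.25 in HCC1937, and to 15.62 to 16.11 and then 16.02 to 16.27 in HCC1937+BRCA1. The 3 fibroblast genes COL1A1, COL1A2 and COL3A1 summed to 20.81 to 20.94 and then 21.11 to 21.92 in HCC1937, and to 20.85 to 21.08 and then 21.60 to 21.66 in HCC1937+BRCA1. Their part in the values of the 10 genes was not tested.

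The lines without the drug are a contrast that did not enter the choice of the genes, although its control arrays are shared with the drug contrasts. Of the 10 genes, 4 were higher in HCC1937+BRCA1 and 0 lower at a limma adjusted p under 0.05, beside 16.4% and 14.8% of all 18417 genes (31.2% in either direction). The arrays did not overlap for 7 genes, all higher in HCC1937+BRCA1, beside 31.8% of all genes higher and 31.8% lower. FIP1L1 was higher by 0.66 ± 0.10 (limma adjusted p = 0.000782), CPSF1 by 0.37 ± 0.08 (0.00967), CSTF3 by 0.28 ± 0.09 (0.0393) and CPSF3 by 0.27 ± 0.09 (0.0475). CPSF2, at 0.25 ± 0.08, missed the threshold (limma adjusted p = 0.0517), with a 95% interval from 0.06 to 0.44. It was called under 6 of 16 alternative settings, among them genes of low level left out, cyclic loess and a trended, robust fit. Thus the gene for the poly(A) polymerase tether had the largest line difference of the set, and the called genes were 3 of the 4 CPSF genes and 1 of the 2 CstF genes.

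Marker genes also differed between the lines without the drug. KRT5 was at -1.70 ± 0.10 (HCC1937+BRCA1 minus HCC1937, limma adjusted p = 2.57e-06), KRT19 at -0.82 ± 0.08 (7.91e-05), CD14 at -3.77 ± 0.12 (9.68e-08), EGFR at 0.51 ± 0.08 (0.00113) and KRT7 at 0.31 ± 0.10 (0.0359). The endothelial genes PECAM1 and CDH5 were at -1.19 ± 0.10 and -1.34 ± 0.10 (limma adjusted p = 3.52e-05 and 1.25e-05). EPCAM, CDH1, KRT8, KRT18 and KRT14 lay between -0.15 and 0.18 and were not called. The part of these marker differences in those of the 10 genes was not tested.

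For the remaining genes the line difference without the drug was not past the threshold. PCF11 stood at 0.18 with an interval from -0.15 to 0.52 (limma adjusted p = 0.429), and RBBP6 at 0.05 with an interval from -0.14 to 0.24 (0.728). CPSF6, CSTF1 and CLP1 were at -0.01, -0.02 and -0.01, with intervals that lay between -0.22 and 0.20. FIP1L1 was called under each of 16 alternative settings, with adjusted p from 3.72e-06 to 0.00879. The CPSF1 call ended without HCC1937+BRCA1 control replicate 2 (adjusted p = 0.0622) or HCC1937 control replicate 2 (0.0833), over a range of 0.000554 to 0.0833. The calls of CSTF3 and CPSF3 held under 9 and 6 of the 16 alternatives, with adjusted p from 0.0197 to 0.21 and from 0.00966 to 0.276. That of CSTF3 ended once any control array, or either HCC1937+BRCA1 COH29 array, was left out, and that of CPSF3 once any array other than HCC1937+BRCA1 control replicate 2 was. Fewer than 4 genes were called once any control array or either HCC1937+BRCA1 COH29 array was left out. The share of all genes called also fell without a control array, but hardly without an HCC1937+BRCA1 COH29 array.

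The difference of the COH29 effects, HCC1937+BRCA1 minus HCC1937, was tested for the 8 genes other than PCF11 and RBBP6. None was called by limma, 3 had an unadjusted p under 0.05, and 0.956% of all genes were called. CSTF3 came nearest, at -0.58 ± 0.12 (95% interval -0.86 to -0.30, limma adjusted p = 0.0775). Over 15 alternatives its adjusted p ran from 0.0174 to 0.271, and it was called with genes of low level left out (0.0342) and with a trended, robust fit (0.0174). CPSF3 and CPSF2 were at -0.33 ± 0.13 and -0.29 ± 0.12 (adjusted p = 0.321 and 0.341, with 0.112 to 0.633 over the alternatives of both genes). For CPSF6 and CSTF1 the difference was -0.02 and 0.02, with 95% intervals of -0.28 to 0.24 and -0.26 to 0.29. CLP1, CPSF1 and FIP1L1 were at 0.11, 0.13 and -0.11, with intervals that lay between -0.42 and 0.41. For PCF11 and RBBP6, chosen for their falls, the difference is given without a test, at -0.20 ± 0.21 and 0.35 ± 0.12.

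**Figure D3:**
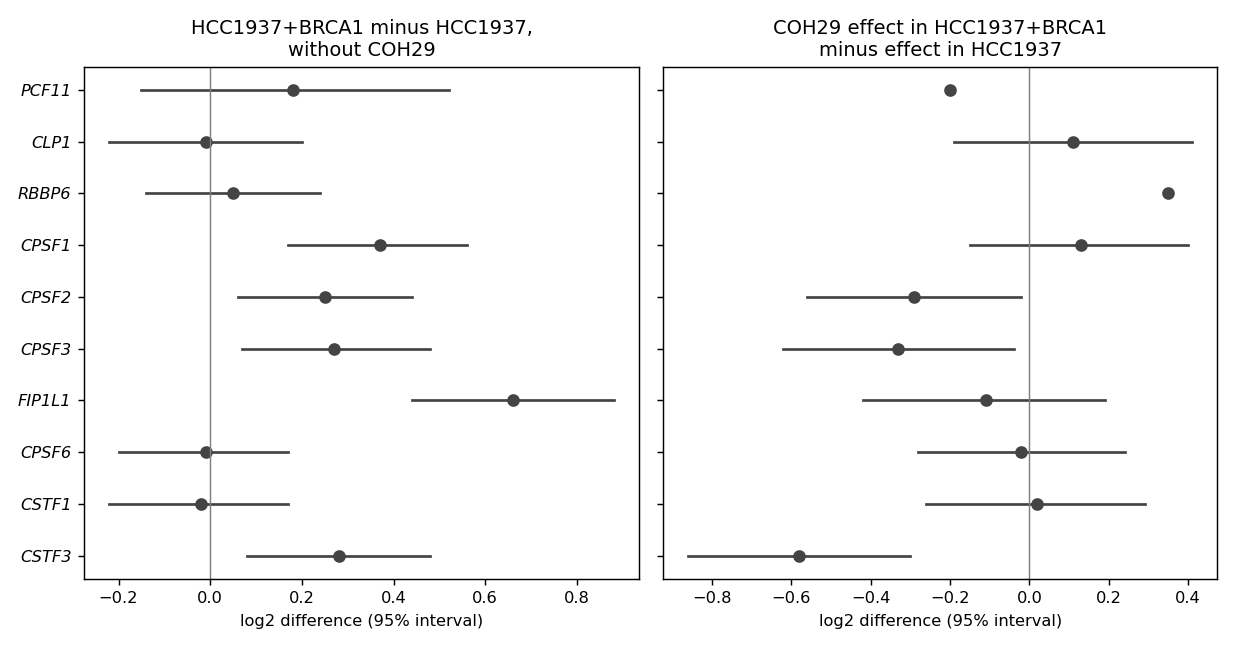
Log2 differences of the 10 genes with 95% intervals of the limma fit, on the left between the lines without COH29 and on the right between the COH29 effects of the lines (both HCC1937+BRCA1 minus HCC1937). FIP1L1 is highest on the left at 0.66 and CSTF3 lowest on the right at -0.58, and PCF11 and RBBP6 have no interval on the right because they were chosen for their change with COH29.

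Other genes of the pathway were taken from 8 lists, of which 88 of 96 genes were measured. With COH29, 5 of the 88 rose and 19 fell in HCC1937 at a limma adjusted p under 0.05, 5.68% and 21.6%, beside 10.2% and 12.5% of all genes. The HCC1937+BRCA1 arrays had 7 that rose and 35 that fell, 7.95% and 39.8%, beside 13.6% and 20.1% of all genes. The median change of the 88 was -0.09 and -0.21. Those shares of all genes are the background for the counts of each list. Fewer than 24 were called in HCC1937 once either control array of that line was left out. A smaller share of all genes was called in those fits as well. In the difference of effects 0 of the 88 were called by limma and 15 had an unadjusted p under 0.05.

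The first list holds further subunits of the same complexes. Of 12 measured, 6 fell in HCC1937, where 1 rose, and 7 fell in the other line, where 0 rose, with medians of -0.26 and -0.43. CSTF2, the RNA-binding subunit of CstF, fell by 0.65 and 0.75 on the log2 scale (SE 0.09, limma adjusted p = 0.00115 and 0.000296). NUDT21, the partner of CPSF6, fell by 0.48 and 0.67 (0.00373 and 0.000365). The scaffold gene SYMPK fell by 0.62 and 0.52 (0.0024 and 0.00376), and PAPOLA, the poly(A) polymerase, by 0.50 and 0.45 (0.00502 and 0.00537). These 4 are the called genes of the list with the smallest p. CPSF4 and WDR33, which recognise the poly(A) signal within CPSF, were not called, at 0.17 ± 0.11 and 0.16 ± 0.12 in HCC1937 and -0.20 ± 0.11 and -0.18 ± 0.12 in HCC1937+BRCA1. The 1 gene that rose in HCC1937 was PAPOLG, a second nuclear poly(A) polymerase, named after its value was seen, at 0.30 ± 0.08 (adjusted p = 0.0323), a call that ended without HCC1937 COH29 replicate 2 (0.123) or control replicate 1 (0.139) or 2 (0.129). CSTF2 and its paralog CSTF2T are close in sequence and their probe sets may share signal.

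Between the lines without COH29, 4 of these 12 subunit genes were higher in HCC1937+BRCA1 and 1 lower, with a median of 0.20, beside 16.4% and 14.8% of all genes. The 4 included CPSF4 and WDR33, core CPSF subunits, at 0.52 ± 0.11 and 0.47 ± 0.12 (limma adjusted p = 0.00622 and 0.0141). CSTF2T and PPP1CA were the others, at 0.53 ± 0.11 and 0.24 ± 0.08 (0.00622 and 0.0437). The 1 lower gene was CSTF2, at -0.66 ± 0.09 (0.000583), opposite to its paralog CSTF2T. All 5 were named here after their values were seen.

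The second list holds termination genes and genes for proteins that bind the polymerase tail, as PCF11 does. Of 14 measured, HCC1937 had 1 that rose and 1 that fell (3 fell without its COH29 replicate 2), and HCC1937+BRCA1 had 4 that fell and 0 that rose. SCAF11, a splicing-associated factor, fell by 0.97 and 0.95 on the log2 scale (SE 0.10, limma adjusted p = 0.000213 and 0.000117). RPRD1A, which like PCF11 holds a domain that binds the polymerase tail, was at -0.37 ± 0.14 in HCC1937 (adjusted p = 0.0922, and 0.00957 without HCC1937 COH29 replicate 2) and fell by 0.86 in HCC1937+BRCA1 (0.00142). PPP1R10, a phosphatase regulator of termination, rose by 0.55 in HCC1937 (0.00208) and was at 0.18 ± 0.09 in HCC1937+BRCA1 (0.143). In none of the 14 did the change reach that of PCF11, the lowest being -0.97, but PCF11 was chosen as being among the largest falls.

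The list on control of premature polyadenylation, with U1 snRNP proteins, CDK12 and CDK13 and elongation factors, had 15 genes, of which 1 rose in each line while 2 fell in HCC1937 and 3 in HCC1937+BRCA1. Leaving out any 1 array other than HCC1937 COH29 replicate 2 turned the 2 into 1, and leaving out HCC1937+BRCA1 control replicate 2 turned the 3 into 1. CTR9, a subunit of the PAF complex, rose by 0.72 and 0.65 (SE 0.09, limma adjusted p = 0.000618 and 0.000572). CDK13, a kinase of the polymerase tail, fell by 0.49 and 0.53 (0.00733 and 0.00317), the former not past the threshold once HCC1937 control replicate 2 was left out (0.0657).

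Replication-dependent histone messenger RNAs are cut by a related machinery and get no poly(A) tail. Of 7 genes of that process, HCC1937 had 2 that rose and 2 that fell, and HCC1937+BRCA1 had 3 of each. NPAT, the activator of histone gene transcription, rose by 0.54 and 0.65 (SE 0.08, limma adjusted p = 0.00173 and 0.000382). CASP8AP2 rose by 0.49 and 0.41 (SE 0.09, 0.0049 and 0.00768), the latter call lost once HCC1937+BRCA1 control replicate 2 was left out. SLBP was at 0.31 ± 0.10 in HCC1937 (0.0544) and rose by 0.46 in HCC1937+BRCA1 (0.00675). ZNF473, which joins the histone cleavage complex, fell by 0.59 and 0.87 on the log2 scale (0.00424 and 0.000318). Of the 2 that fell in HCC1937, 1 was left without its COH29 replicate 1, either of its control arrays or either HCC1937+BRCA1 COH29 array.

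Integrator, which cleaves small nuclear RNAs with relatives of CPSF2 and CPSF3, had 14 genes measured, of which 1 fell in HCC1937 and 0 rose, while 7 fell in HCC1937+BRCA1 and 1 rose. The shares of all genes that fell were 12.5% and 20.1%, and 0 of the 14 were called in the difference of effects, where 4 had an unadjusted p under 0.05. INTS3 fell by 0.49 and 0.68 on the log2 scale (SE 0.08, limma adjusted p = 0.00332 and 0.000334). INTS9, the relative of CPSF2, was at -0.32 ± 0.10 (adjusted p = 0.051, and 0.0372 without HCC1937 COH29 replicate 2) and fell by 0.59 in HCC1937+BRCA1 (0.00208). In HCC1937 2 fell once its COH29 replicate 2 or either HCC1937+BRCA1 COH29 array was left out, and without HCC1937+BRCA1 COH29 replicate 2 or its control replicate 1, 0 rose in that line.

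Of 3 tRNA splicing endonuclease genes, whose enzyme works with CLP1, TSEN54 fell by 0.42 and 0.71 on the log2 scale (limma adjusted p = 0.00779 and 0.000301), with the former lost once HCC1937 control replicate 1 was left out (0.0654). The other 2 genes were not called in either line. Of 8 mRNA export genes 2 fell in HCC1937 and 5 in HCC1937+BRCA1, with 0 higher. In HCC1937 0 fell once its COH29 replicate 1 or either of its control arrays was left out, and 1 once its COH29 replicate 2 or either HCC1937+BRCA1 control array was. In HCC1937+BRCA1 3 fell once either of its COH29 arrays or its control replicate 2 was left out. THOC1, a subunit of the THO export complex, fell by 0.40 and 0.44 on the log2 scale (SE 0.09, limma adjusted p = 0.0138 and 0.00585). The former call was lost once HCC1937 COH29 replicate 1 or either HCC1937 control array was left out.

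Of 15 genes of nuclear RNA decay, 4 fell in HCC1937, where 0 rose, and 5 fell in HCC1937+BRCA1, where 2 rose. EXOSC10, a catalytic subunit of the exosome, fell by 0.66 and 0.79 on the log2 scale (SE 0.08, limma adjusted p = 0.000503 and 0.000101), and EXOSC9, a core subunit, by 0.64 and 0.96 (0.00179 and 0.000122). MTREX, the helicase that feeds the exosome, fell by 0.40 and 0.92 (SE 0.08, limma adjusted p = 0.00933 and 7e-05). Its HCC1937 call was lost once HCC1937 COH29 replicate 1 or either HCC1937 control array was left out. ZCCHC8 was at 0.06 ± 0.09 in HCC1937 (adjusted p = 0.652) and rose by 0.60 in HCC1937+BRCA1 (0.00087). Only 2 fell in HCC1937 once its COH29 replicate 1 or either of its control arrays was left out, and 1 rose in HCC1937+BRCA1 once any 1 of its own arrays or either HCC1937 control array was.

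**Figure D4:**
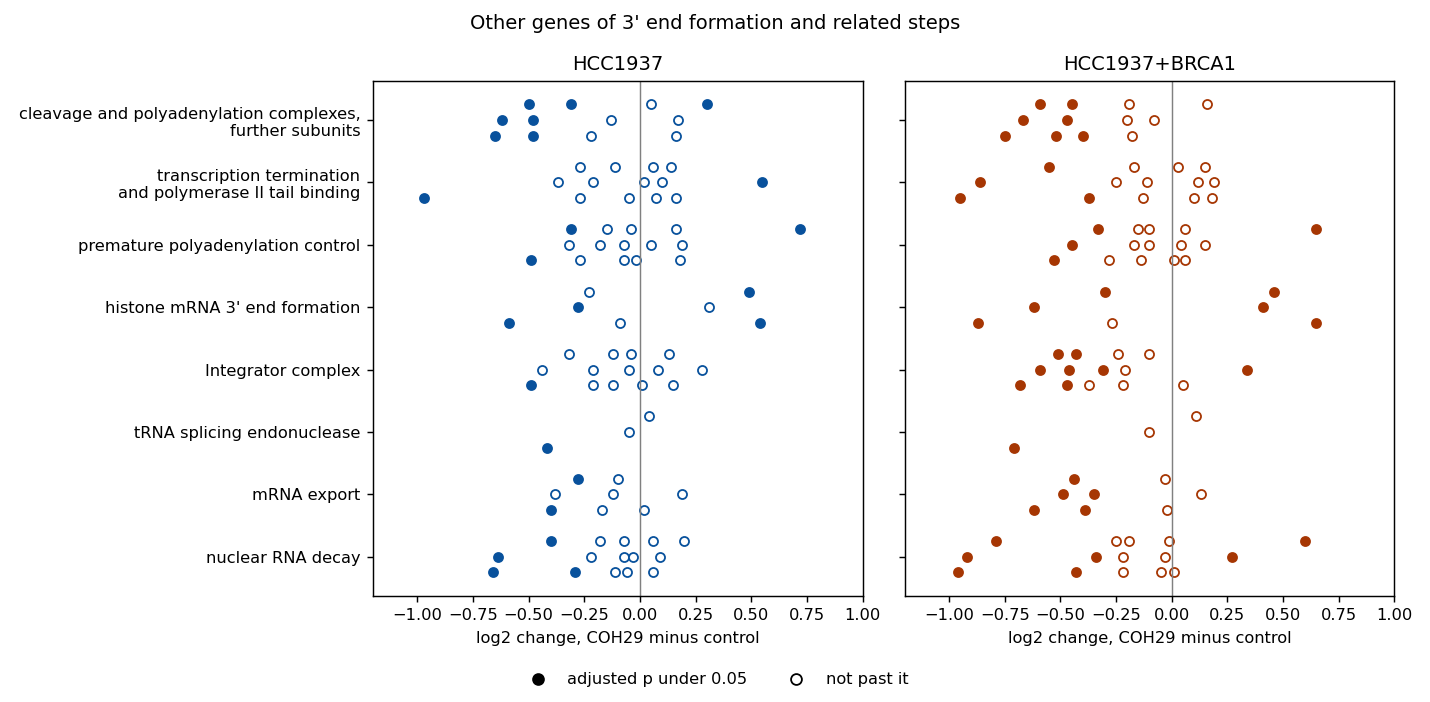
Log2 change with COH29 (x axis) of the 88 measured genes of the 8 lists (y axis), in HCC1937 on the left and HCC1937+BRCA1 on the right, with 1 point per gene, filled where the limma adjusted p was under 0.05 (vertical offsets within a list only separate points). The changes run from -0.97 to 0.72 in HCC1937 and from -0.96 to 0.65 in HCC1937+BRCA1. None is as low as PCF11 or RBBP6, which were chosen for their large falls.

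The genes most like PCF11 and RBBP6 were looked for by the root mean square difference between array profiles, each centred on its own mean over the 8 arrays. Nearest to PCF11 were the histone gene H2BC3 (0.14 log2 units), the cell cycle transcription factor gene E2F5 (0.21), RBBP6 itself (0.23), the SUMO protease gene SENP7 (0.25) and the chaperonin-like gene MKKS (0.26). Nearest to RBBP6 were the cytochrome P450 gene CYP1B1 (0.18), PCF11 (0.23), the mitotic kinase gene AURKA (0.23), the histone gene H2BC14 (0.26) and the adhesion receptor gene ADGRF1 (0.28). PCF11 and RBBP6 were thus each among the 5 nearest profiles of the other over these 8 arrays. Both were picked for falling strongly, which itself makes such profiles near, so this is a description without a test.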

How the data were processed

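The values are the authors' deposited log2 intensities of 33297 probe sets on 8 arrays. RMA and Partek are named, without version, in the submitters' processing notes. RMA makes array distributions nearly equal, and the sorted arrays differed by at most 0.297. The platform annotation paired 19460 probe sets with 1 gene, and the probe set with the highest mean was kept, which left 18417 genes.

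The means of the 4 groups were modelled over the 8 arrays in limma 3.58.1 (R 4.3.3, 4 residual degrees of freedom) and moderated with eBayes. Benjamini-Hochberg adjustment ran over all genes, with calls at an adjusted p under 0.05. The fit was tested on simulated data. Figures used Python 3.11.15 and matplotlib 3.10.9. Precision is limited by how few arrays there are.

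The genes, the 8 lists and the rule for named genes (all 10 genes, up to 4 called genes of a list by p of the mean effect, 5 nearest profiles) were chosen with earlier results of these data known. Some names the rule allows were left out for length. Among them were SUPT4H1, PAF1, THOC2, THOC6 and THOC7, each with a call that ended when an array was left out. Correlations of same-numbered arrays' deviations ran from -0.204 to 0.26, so replicate numbers were not taken as pairs. Alternatives were a filter on low genes (30th percentile), 2 scalings, a trended fit, a replicate block, mean probe sets, a fit to only those arrays that a contrast compares, and each array left out in turn.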

Additional observations from a re-analysis of the deposited data

How the results depend on the processing

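The changes of PCF11 and RBBP6 with COH29 stayed between -2.45 and -1.79 under 16 alternatives in each line. Between the lines without COH29, 4 genes were called in the main fit. The genes called did not grow in number when arrays were left out, but were not always the same ones. They were 2 with the replicate number as a replicate block, beside 29.3% of all genes. With arrays shifted to the same median, or only the arrays compared, they were 3 (31.5% and 31.3% of all genes). With low genes left out, cyclic loess or a trended, robust fit they were 5, CPSF2 being added (44.4%, 32.4% and 34.9%). With the numbers crossed between the lines, an alternative chosen after seeing the data, they were also 5 (33.6%). The 24 and 42 list genes called in the lines were 20 and 42 with the replicate block, beside 20.5% and 31.3% of all genes. With the crossed numbers they were 25 and 43, beside 25.9% and 38.1%. Neither fit called a gene of the 8 tested in the difference of effects. In the difference of COH29 effects the 0 calls became 1 with low genes left out and 1 with a trended, robust fit, CSTF3 each time. The 24 list genes called in HCC1937 became 38 with the trended, robust fit and 14 to 24 when arrays were left out. The 42 called in HCC1937+BRCA1 ran from 35 to 48 over the alternatives. Differences near 0 changed sign. Without COH29, leaving out arrays gave -0.05 to 0.02 for CPSF6, -0.07 to 0.02 for CSTF1 and -0.09 to 0.06 for CLP1. For the difference of effects it gave -0.06 to 0.01 for CPSF6 and -0.05 to 0.08 for CSTF1, and CPSF6 was at 0.01 with arrays shifted to the same median and 0.05 after cyclic loess. The causes were not tested.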
